A study of Mus musculus with 6 samples.

Results

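Interferon response and antigen presentation genes were examined in the retina of mice that received N-methyl-D-aspartate (NMDA) and then stem cell factor (SCF) or phosphate-buffered saline (PBS). The members were chosen by gene symbol, not by their measured values. They were B2m, H2-K1, H2-D1, Irf1, Irf9, Ifit1, Ifit3, Bst2 and Cd74. Of these 9 genes, 8 had transcripts in the libraries, among 25202 genes with a value above 0, and Cd74 was not analysed here. All mice were wild type C57BL/6 animals labelled as post natal week 5, and the study's methods give an age of 4 weeks at the start. All received NMDA, an agonist of glutamate receptors that kills retinal ganglion cells, into the vitreous. At 2 days, SCF, the ligand of the receptor c-kit, was injected into the vitreous of the NMDA + SCF group. The NMDA + PBS group received PBS in its place, which the study's methods state and the labels do not. Retinas were taken 1 week after that injection, and 3 libraries of each group were sequenced. A retina without NMDA was not analysed here, so no value shows what NMDA itself did to these genes. The number of animals behind a library is not given in the sources used here, so the p-values below measure only the spread between these libraries, which may be technical.

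Interferons are signalling proteins that cells release on infection or injury. They bind surface receptors whose Janus kinases phosphorylate STAT proteins, and STAT proteins together with IRF9 enter the nucleus and bind the interferon-stimulated response element of target genes. Interferon gamma acts through a STAT dimer on the gamma-activated site, and IRF1 is an early target that carries the response on to class I genes. In the retina the parenchymal neurons hold little class I protein, whereas microglia, vascular cells and infiltrating leukocytes hold more. Beta-2-microglobulin, made from B2m, is the light chain of every classical class I molecule, and H2-K1 and H2-D1 make the heavy chains. IFIT1 and IFIT3 bind viral RNA or the proteins that sense it, BST2 (tetherin) holds budding virus at the cell surface, and CD74 is the invariant chain of class II molecules.

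The letters of the core of the interferon-stimulated response element are shown for the promoters that held an exact match. The core of this element (GAAA, any 2 bases, GAAA) was searched on both strands in RefSeq promoter windows of GRCm38.p6 that run from 250 bases before to 50 after the transcript start. It was found in the windows of B2m, Bst2, Ifit1 and Ifit3, 4 of the 8 members with a window, and in 3.44% of 32841 windows of all genes. Capitals mark the core, which lies on the other strand (as TTTC, any 2 bases, TTTC) in the Ifit1 and Ifit3 promoters, and the 2 cores of Bst2 overlap.
B2m promoter, chr2:122147533-122147572, plus strand: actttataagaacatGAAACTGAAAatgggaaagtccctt
Bst2 promoter, chr8:71537572-71537617, minus strand: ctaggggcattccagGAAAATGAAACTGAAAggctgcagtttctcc
Ifit1 promoter, chr19:34640770-34640828, plus strand: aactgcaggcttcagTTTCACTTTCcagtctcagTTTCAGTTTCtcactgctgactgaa
Ifit3 promoter, chr19:34583358-34583431, plus strand: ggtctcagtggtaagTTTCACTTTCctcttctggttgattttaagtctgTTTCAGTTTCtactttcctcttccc
The cores lay from 139 to 130 bases before the start in B2m, from 130 to 115 in Bst2, from 104 to 76 in Ifit1 and from 156 to 113 in Ifit3. The gamma-activated site TTCNNNGAA was found for Bst2 and Irf1 and in 8.3% of all windows. The NF-kB-like letters GGGANTTCC were found for 0 members and in 1.68% of all windows. The letters CCAAT were found for B2m, H2-D1, H2-K1, Ifit3 and Irf1 and in 37.4% of all windows. A match of letters describes the window only, and no binding was measured here. Only these exact letters were searched, so a window without them may still hold a variant of the site.

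The libraries differ in ways that touch these genes. The clean reads per library numbered 44925938 to 48783182, and the values correspond to 3404332 to 4440578 counted fragments. The files name transcripts by 2 lists. The 3 NMDA + SCF libraries and NMDA + PBS replicate 1 use list A, and NMDA + PBS replicates 2 and 3 use list B. Sums were taken over the 46933 Ensembl transcripts that both lists hold, so every gene value below leaves out transcripts that one list lacks. Defining markers of the retina were high in every library, with the rod photoreceptor list summing to between 5857 and 8392 FPKM (fragments normalised to transcript length and to the total of the library). Lens markers summed to between 23.4 and 302 FPKM in the NMDA + PBS libraries and between 457 and 9483 in the NMDA + SCF libraries, and the part of lens RNA in the values of the members was not tested.

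No member passed the test between NMDA + SCF and NMDA + PBS. B2m and Bst2 had the highest fitted changes, each with an interval that spanned 0, and the values of all 8 members overlapped between the groups. The test was limma on log2(FPKM + 1) across all genes, with Benjamini-Hochberg adjustment, and fold changes on this scale understate the change of low genes. At an adjusted p of at most 0.05, 0 of the 8 members were called, against 0 of 25202 genes (0%), and the smallest adjusted p of any gene was 0.536. At an unadjusted p of at most 0.05, 0 of 8 members passed, beside 2324 genes (9.22%). Groups that did not overlap were found for 0 of 8 members and for 14.1% of all genes. The fitted change was above 0 for 6 members (Ifit3, with 3 fragments in all, among them) and below 0 for 2, and above 0 for 49.1% of all genes. The median log2 fold change of the members was 0.24, beside -0.01 over all genes and 0.07 over genes with a mean of at least 1 FPKM. Mitochondrial genes held 16.9 to 23.4% of the summed FPKM in the NMDA + PBS libraries and 11.9 to 12.3% in the NMDA + SCF libraries. Without them the median was 0.16 for the members and -0.07 for all genes.

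The class I light chain was the most abundant member. B2m (ENSMUSG00000060802) lies on chr2:122147686-122153083 of GRCm38, plus strand, and its 1 annotated transcript, ENSMUST00000102476, codes for protein and is in both lists. Library values are given in the order of replicates 1, 2 and 3 of each group throughout. B2m measured 286, 396 and 111 FPKM after PBS and 316, 377 and 397 FPKM after SCF. The lowest library was NMDA + PBS replicate 3, NMDA + PBS replicate 2 lay above NMDA + SCF replicates 1 and 2, and the groups overlapped. The means were 264 ± 144 FPKM (SD, n = 3) and 363 ± 42.0 (SD, n = 3). The log2 fold change of B2m was 0.64 ± 0.44 (SE), with a 95% interval of -0.40 to 1.68 and an adjusted p of 0.66 in limma. The spread between NMDA + PBS libraries was 3.43 times that between NMDA + SCF libraries on the FPKM scale, and without NMDA + PBS replicate 3 the log2 fold change was 0.10. Between 422 and 1355 fragments stood behind each value of B2m.

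**Figure D1:**
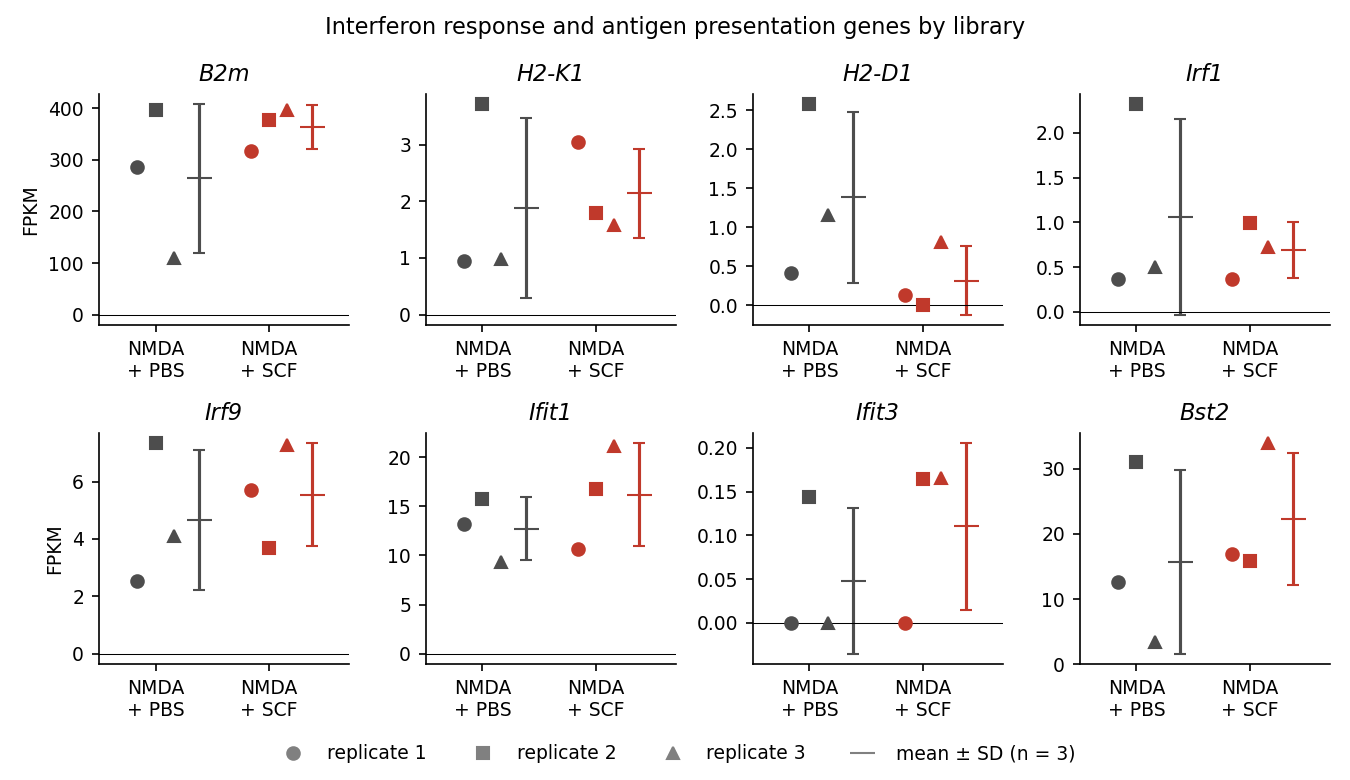
FPKM of the 8 measured genes (vertical axes, linear, 1 scale per gene) in the 3 NMDA + PBS and 3 NMDA + SCF libraries, with 1 point per library, marker shape for the replicate number, and a bar for the mean ± SD (n = 3), which can reach below 0 for low genes. The groups overlap in every panel, and NMDA + PBS replicate 2 (square) is the highest of the 6 libraries for H2-K1, H2-D1, Irf1 and Irf9.

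The class I heavy chains were barely counted. H2-K1 (ENSMUSG00000061232, chr17:33996017-34000347, minus strand) measured 0.949, 3.72 and 0.978 FPKM after PBS and 3.04, 1.80 and 1.59 after SCF. NMDA + PBS replicate 2 was the highest, and the other NMDA + PBS libraries were the lowest. These values rest on 2 to 8 fragments a library, and the log2 fold change of H2-K1 was 0.23 ± 0.45 (SE), adjusted p = 0.863 in limma. H2-D1 (ENSMUSG00000073411, chr17:35262730-35267499, plus strand) measured 0.419, 2.58 and 1.16 FPKM after PBS and 0.139, 0 and 0.817 after SCF. NMDA + PBS replicate 2 was again the highest, and NMDA + PBS replicate 1 lay among the NMDA + SCF libraries. H2-D1 had the smallest adjusted p of the members, 0.549 in limma, with a log2 fold change of -0.80 ± 0.41 (SE). It was counted with 16 fragments in the 3 NMDA + PBS libraries and 5 in the 3 NMDA + SCF libraries, a depth-scaled ratio of 0.349 with an exact 95% counting interval of 0.10 to 0.998, which covers counting error only. The retained-intron transcript ENSMUST00000174325 made 74.5% of the H2-D1 value, with 7 and 3 fragments in NMDA + PBS replicates 2 and 3, the libraries of list B, 0 in NMDA + PBS replicate 1 and 0, 0 and 1 in the NMDA + SCF libraries. A count of 0 allows up to 3 fragments. The coding transcript ENSMUST00000172785 of H2-D1 had 3, 1 and 2 fragments after PBS and 1, 0 and 3 after SCF.

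B2m had at least 422 fragments in each library and the heavy chains at most 8. GENCODE annotates 8 coding transcripts of H2-K1, and 1 of them is in both lists. The full-length coding transcript ENSMUST00000025181 of H2-K1 is in list A only and had at most 1 fragment in any library there. The H2-K1 value was led by ENSMUST00000172782, a processed transcript of 480 bases with 80.1% of the FPKM, and coding transcripts gave 7.94%. The heavy chains also share sequence with each other and with neighbouring class I genes, so reads of one may have been counted for another or left uncounted. Windows of 50 bases that also occur in other genes made up 34.6% of ENSMUST00000172782 and 24.3% of ENSMUST00000174325. These transcripts led the H2-K1 and H2-D1 values. The share was 8.79% for the full-length H2-K1 transcript and 14.3% for the coding H2-D1 transcript ENSMUST00000172785. The longest identical run of their coding sequences has 91 bases in exon 4 of 8, at chr17:33997343-33997433 on the minus strand for H2-K1 and chr17:35265911-35266001 on the plus strand for H2-D1, and it is shown because a read inside it fits both genes.
H2-K1 and H2-D1 shared coding run: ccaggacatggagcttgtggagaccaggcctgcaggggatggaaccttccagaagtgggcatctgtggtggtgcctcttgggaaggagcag

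The transcription factors of the response were low. Irf9 (ENSMUSG00000002325, chr14:55603571-55610030, plus strand) measured 2.53, 7.35 and 4.11 FPKM after PBS and 5.70, 3.67 and 7.26 after SCF. The highest and the lowest of these 6 values were both in NMDA + PBS libraries. The log2 fold change of Irf9 was 0.26 ± 0.39 (SE), adjusted p = 0.818 in limma. Both listed transcripts of Irf9 retain an intron, and 0 of its 4 coding transcripts are in either list. Whether reads of the messenger RNA that makes IRF9 were counted in the listed transcripts was not tested. Irf1 (ENSMUSG00000018899, chr11:53770014-53778374, plus strand) measured 0.368, 2.32 and 0.497 FPKM after PBS and 0.365, 0.994 and 0.724 after SCF. NMDA + PBS replicate 2 was the highest here as well, on 8 fragments, and the other libraries had 1 to 4. The log2 fold change of Irf1 was -0.18 ± 0.40 (SE), adjusted p = 0.882 in limma, and its sign turned to 0.23 without NMDA + PBS replicate 2. A retained-intron transcript made 88.4% of the Irf1 value, and 1 of its 7 coding transcripts is in both lists.

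Among the antiviral effectors, Bst2 varied more between libraries than Ifit1, by 9.95 against 2.26 times from the lowest to the highest. Bst2 (ENSMUSG00000046718, chr8:71534255-71537456, minus strand) measured 12.6, 31.1 and 3.41 FPKM after PBS and 16.95, 15.9 and 34.0 after SCF. NMDA + PBS replicate 3 was the lowest, NMDA + PBS replicate 2 and NMDA + SCF replicate 3 were both high, and the groups overlapped. The means of Bst2 were 15.7 ± 14.1 FPKM and 22.3 ± 10.1 FPKM (SD, n = 3 each), and its log2 fold change was 0.82 ± 0.68 (SE), with a 95% interval of -0.78 to 2.42 and an adjusted p of 0.688 in limma. Without NMDA + PBS replicate 3 the log2 fold change of Bst2 was 0.07, and without NMDA + PBS replicate 2 it was 1.504. Its coding transcript ENSMUST00000051672 made 97.7% of the value, on 12 to 94 fragments a library.

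Ifit1 (ENSMUSG00000034459, chr19:34640871-34650009, plus strand) measured 13.2, 15.7 and 9.33 FPKM after PBS and 10.7, 16.8 and 21.1 after SCF. NMDA + PBS replicate 3 was again the lowest, but NMDA + SCF replicate 1 was close to it. The means of Ifit1 were 12.7 ± 3.22 FPKM and 16.2 ± 5.26 FPKM (SD, n = 3 each), and its log2 fold change was 0.30 ± 0.30 (SE), with a 95% interval of -0.41 to 1.01 and an adjusted p of 0.727 in limma. Its 1 transcript codes for protein and carried 97 to 194 fragments a library, and 7.13% of its windows of 50 bases also occur in other genes, mainly Ifit1bl2. Ifit3 (ENSMUSG00000074896, chr19:34583531-34588731, plus strand) was at or below the floor of 3 fragments in every library. It had 1 fragment in NMDA + PBS replicate 2 and in NMDA + SCF replicates 2 and 3, and 0 in the other libraries, so no fold is given. Of the windows of its transcript, 51.2% also occur in Ifit3b, and a read there cannot be placed in one gene. Ifit1 and Ifit3, whose promoters both hold 2 of the cores shown above, thus differed in counted fragments, 841 against 3 over the 6 libraries.

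**Figure D2:**
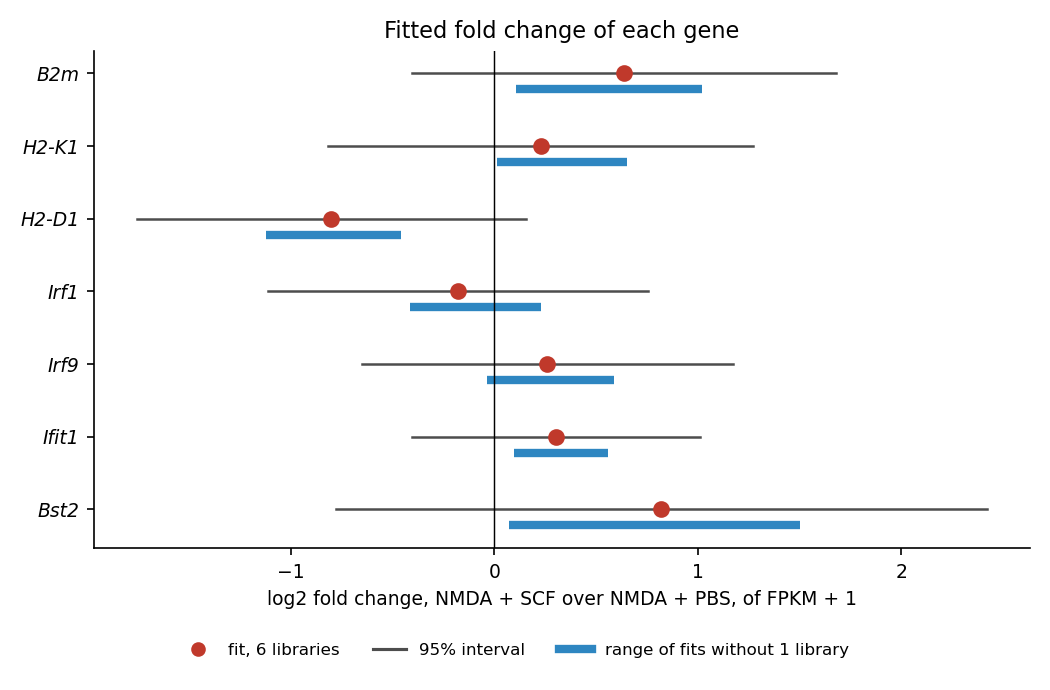
Fitted log2 fold change of FPKM + 1 (horizontal axis, NMDA + SCF over NMDA + PBS) for 7 genes, Ifit3 being left out for its low counts, with its 95% interval from limma (thin line) and the range of the 6 fits that each leave out 1 library (thick line). Every interval spans 0, and the range for Irf1 and Irf9 does too.

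Members with at least 10 fragments in every library were B2m, Bst2, Ifit1 and Irf9, and the other 4 measured members had at most 8. Coding transcripts made all of the value of B2m, Ifit1 and Ifit3 and 97.7% of Bst2, but 25.5% of H2-D1, 11.6% of Irf1, 7.94% of H2-K1 and 0% of Irf9. The members with a well-counted coding transcript were thus B2m, Bst2 and Ifit1. For these 3 genes NMDA + PBS replicate 3 alone was the lowest library, which held for 18.6% of all genes and for 28.9% of the genes with a mean of at least 1 FPKM. For H2-K1, H2-D1, Irf1 and Irf9, NMDA + PBS replicate 2 was the highest, which held for 18.8% of all genes. Within list A, NMDA + PBS replicate 1 is the only control library and no test is possible. The mean of the NMDA + SCF libraries was 1.27 times that library for B2m, 1.23 times for Ifit1 and 1.77 times for Bst2. For Ifit1, NMDA + SCF replicate 1 (10.7 FPKM) lay below that library (13.2 FPKM). Mitochondrial genes held 23.4% of the summed FPKM in NMDA + PBS replicate 1 and 11.9 to 12.3% in the NMDA + SCF libraries. The part of this difference in these ratios was not tested, and the same ratio over all genes was not taken.

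Upstream of the members, the receptors and kinases did not pass the test either. Ifngr1, a chain of the interferon gamma receptor, was the best measured, with 70.2, 59.2 and 57.2 FPKM after PBS and 68.4, 85.5 and 71.7 after SCF. Its groups overlapped, with a log2 fold change of 0.27 ± 0.17 (SE), adjusted p = 0.627 in limma. Its partner Ifngr2 ranged from 0.353 to 3.75 FPKM and Ifnar2, a chain of the type I receptor, from 0.0825 to 0.482. Ifnar1 and Jak2 have no transcript in both lists, so no fold is given for them. Jak1 was higher in NMDA + PBS replicate 1 (11.9 FPKM) than in the other 5 libraries (7.12 to 8.10), and Tyk2 ranged from 0 to 1.04 FPKM. Stat2, a STAT protein of the type I complex, was highest in NMDA + PBS replicate 2 (14.1 FPKM) and between 5.28 and 7.82 in the others. Coding transcripts gave 0% of the Stat2 value and 2.79% of the Jak1 value, which rested on 13 to 23 fragments a library.

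Irf8, a factor of myeloid cells, measured 1.86, 3.43 and 1.11 FPKM after PBS and 3.94, 4.24 and 3.86 FPKM after SCF, with a log2 fold change of 0.75 ± 0.35 (SE) and an adjusted p of 0.542 in limma. It is named here after its values were seen, because its groups did not overlap.

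The other genes of these pathways were counted in 6 lists of 125 genes, of which 92 were tested. At an adjusted p of at most 0.05, 0 of the 92 passed in limma, and at an unadjusted p of at most 0.05, 2 were higher (Pias1 among them) and 2 lower (Ptpn2, H2-T24), beside 4.33% and 4.9% of all genes. Of the 92 genes, 51 had a fitted change above 0 and 41 below 0, and their median log2 fold change was 0.07. Groups that did not overlap were found for 5 higher genes (Irf8, Parp12, Psmb8 and Rfxap among them) and 2 lower genes (Ifit2 and H2-T24), beside 7.63% and 6.45% of all genes.

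Ligands and receptors had 3 of 5 fits above 0 with a median log2 fold change of 0.10, and transducers and factors 4 of 12 with a median of -0.16. Inhibitors of interferon signaling had 3 of 6 above 0 with a median of 0.05. Interferon-stimulated effectors had 24 of 40 above 0 with a median of 0.06, class I presentation genes 11 of 19 with a median of 0.12, and class II presentation genes 6 of 10 with a median of 0.14.

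**Figure D3:**
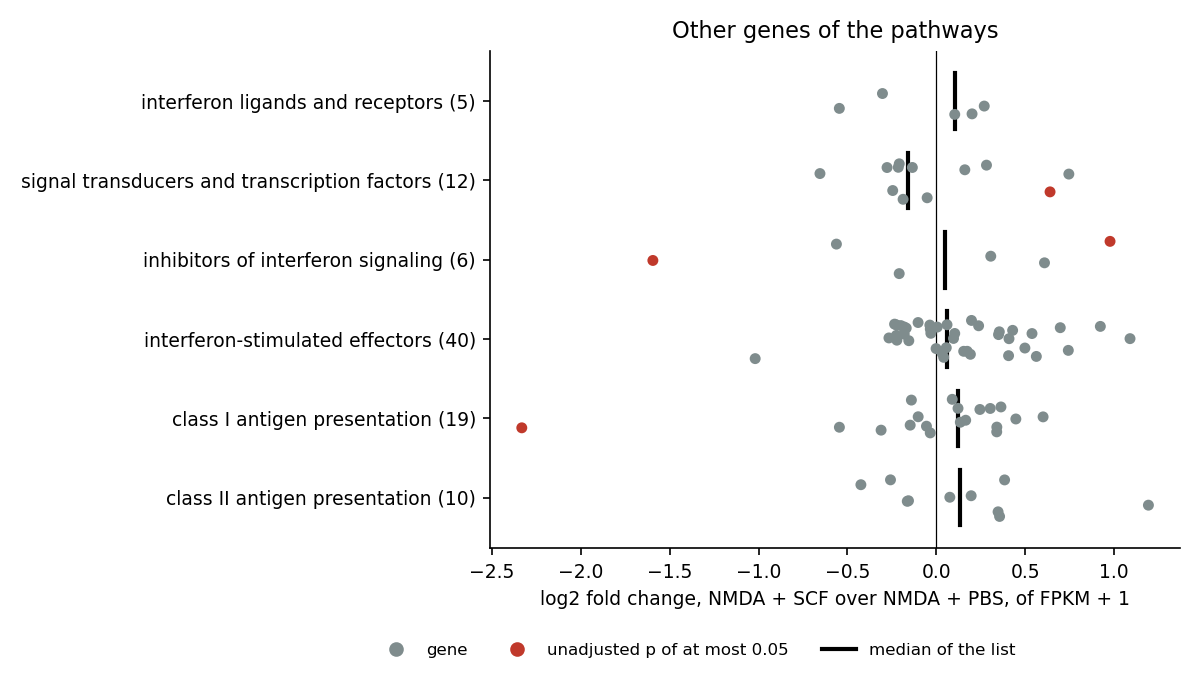
Fitted log2 fold change of FPKM + 1 (horizontal axis, NMDA + SCF over NMDA + PBS) of each tested gene in 6 pathway lists, with the number tested in brackets, the list median as a black bar and red points for an unadjusted p of at most 0.05. Red points are 2 higher genes (Pias1 among them) and 2 lower genes (Ptpn2, H2-T24), and the list medians lie between -0.16 and 0.14.

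Of the 4 genes at an unadjusted p of at most 0.05, 3 had values that followed the transcript list, with NMDA + PBS replicate 1 beside the NMDA + SCF libraries. Ptpn2, a phosphatase that acts on JAK and STAT proteins, measured 7.73, 37.6 and 45.3 FPKM after PBS and 6.53, 6.43 and 9.13 after SCF. Pias1, an inhibitor of STAT proteins, measured 21.4, 6.99 and 8.13 FPKM against 22.3, 23.6 and 20.9. The class I gene H2-T24 measured 1.21, 13.5 and 18.1 FPKM against 0.134, 0.922 and 1.19. Parp14, an antiviral ADP-ribosyltransferase that did not pass this threshold, showed the same split, with 0.713, 7.86 and 4.49 FPKM against 1.10, 1.28 and 1.09. Treatment and transcript list cannot be told apart in NMDA + PBS replicates 2 and 3, and in list A alone the NMDA + SCF values of Ptpn2 and Pias1 lay on both sides of NMDA + PBS replicate 1.

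NMDA + PBS replicate 3, the lowest library for B2m, Bst2 and Ifit1, was also the lowest for the effectors Ifitm3, Isg15 and Parp12. These effectors are counted on coding transcripts. That library alone was the lowest for 13 of the 40 tested effectors, beside 18.6% of all genes. Among genes with a mean of at least 1 FPKM the share was 28.9%. Ifitm3, which blocks virus entry, measured 104, 247 and 39.5 FPKM after PBS and 161, 231 and 268 after SCF, with a log2 fold change of 1.09 ± 0.60 (SE), adjusted p = 0.569 in limma. Isg15, a ubiquitin-like modifier, measured 23.7, 27.9 and 7.45 FPKM against 22.01, 39.2 and 43.6, with a log2 fold change of 0.92 ± 0.49 (SE), adjusted p = 0.56 in limma. The groups overlapped for both genes. Parp12, of the same enzyme family as Parp14, measured 10.1, 11.9 and 7.18 FPKM against 12.9, 14.2 and 14.6, with no overlap, a log2 fold change of 0.50 ± 0.23 (SE) and an adjusted p of 0.54 in limma.

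Ifit2, of the same family as Ifit1 and Ifit3, had its lower values after SCF, with 15.5, 14.8 and 14.2 FPKM after PBS against 12.6, 13.5 and 11.7 after SCF. Its groups did not overlap, and its log2 fold change was -0.22 ± 0.18 (SE), adjusted p = 0.688 in limma. Of the class II genes, H2-Eb1 measured 3.97, 26.5 and 1.71 FPKM against 17.3, 14.8 and 14.4. Its log2 fold change was 1.19 ± 0.77 (SE), adjusted p = 0.626 in limma, and class II protein was not measured here. For H2-Eb1, NMDA + PBS replicate 2 was the highest and NMDA + PBS replicates 1 and 3 the lowest. Socs3, an inhibitor that STAT proteins induce, showed a like spread, with 9.72, 68.5 and 13.8 FPKM against 23.3, 33.4 and 45.8. Usp18, a protease that removes ISG15 and dampens the type I receptor, was more even, with 6.54, 7.42 and 5.19 FPKM against 7.28, 7.72 and 9.30. The class I gene H2-M3, which presents formylated peptides, measured 5.92, 8.92 and 1.72 FPKM against 5.68, 5.60 and 8.04, and NMDA + PBS replicate 3 was its lowest library. Tap2, a chain of the peptide transporter, ranged from 0 to 1.71 FPKM on a short non-coding transcript, and the chaperone Canx from 2.20 to 8.98. Of the other class II genes, the peptide editor H2-DMb1 ranged from 0.481 to 4.30 FPKM. The proteases Lgmn and Ctsl ranged from 1.67 to 6.93 and from 4.80 to 14.7 FPKM. The groups overlapped for each of these class II genes. Coding transcripts gave 32.7% of the Canx value, 11.2% of the Lgmn value and 26.7% of the Ctsl value.

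Markers of microglia, the resident immune cells of the retina, moved with the libraries in which B2m and Bst2 were low or high. C1qa, a complement chain of microglia, measured 72.3, 155 and 16.7 FPKM after PBS and 109, 142 and 153 after SCF, and C1qb measured 61.6, 122 and 16.6 FPKM against 97.9, 146 and 137. Lyz2, a lysozyme of macrophages and neutrophils, measured 37.5, 349 and 10.3 FPKM against 151, 176 and 102. NMDA + PBS replicate 3 was the lowest for these 3 genes, and the groups overlapped for each of them. Of the 17 genes of the microglia list, 11 are in both lists and 10 were above 0, and their sum ranged from 63.9 to 333 FPKM in NMDA + PBS and from 247 to 344 FPKM in NMDA + SCF. Of the defining markers, Cx3cr1 had at most 1 fragment in a library, Gpr34 was listed at 0 in every library, and P2ry12 and Aif1 have no transcript in both lists. The low NMDA + PBS replicate 3 was not particular to microglial markers. It alone was the lowest library for 5 of 10 tested genes of the microglia list and 5 of 8 of the rod photoreceptor list. The counts were 3 of 7 for Muller glia, 3 of 6 for pigment epithelium, 4 of 6 for dendritic cells and 1 of 7 for vascular endothelium. They were 1 of 7 for retinal ganglion cells, 1 of 4 for bipolar cells, 1 of 6 for monocytes, macrophages and neutrophils, and 1 of 4 for lymphocytes. For lens they were 0 of 7 and for cornea and conjunctiva 0 of 3. The same held for 18.6% of all genes. Cldn5, a tight junction protein of endothelium, measured 78.5, 63.5 and 28.5 FPKM against 74.3, 102 and 99.99. Clu, which Muller glia express, measured 1288, 2244 and 717 FPKM against 2026, 2436 and 2801. Ttr, of the pigment epithelium, measured 779, 356 and 176 FPKM against 694, 919 and 827. Other markers of these lists differed. Glul, of Muller glia, was lowest in NMDA + PBS replicate 2 (1960 FPKM), as was Esam, of endothelium (23.1 FPKM). Cdh5, of endothelium, was lowest in NMDA + PBS replicate 1 (6.76 FPKM). Of the pigment epithelium, Mlana was lowest in NMDA + PBS replicate 3 (14.1 FPKM) and Rgr in NMDA + SCF replicate 3 (2.34 FPKM). The list of T and B lymphocyte markers summed to between 0.609 and 2.98 FPKM. Fewer cells of a type and less RNA per cell cannot be told apart in bulk retina, and the part of microglia or of these other cells in the values of B2m, Bst2 and Ifitm3 was not tested.

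**Figure D4:**
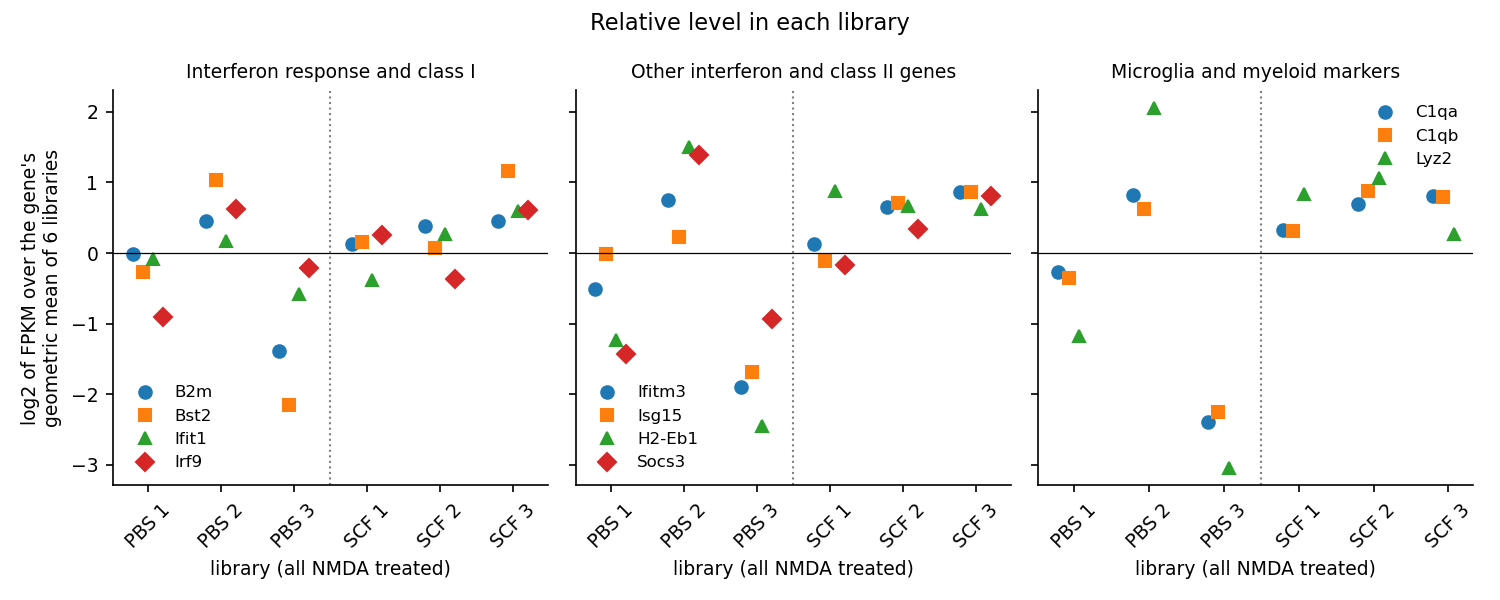
Level in each library as log2 of FPKM over the gene's geometric mean of the 6 libraries (vertical axis), for 4 interferon or class I genes, 4 other genes of the pathways and 3 markers of microglia and myeloid cells, with 1 point per gene and library and a dotted line between the groups. NMDA + PBS replicate 3 is the lowest library for B2m, Bst2, Ifit1, Ifitm3, Isg15, H2-Eb1, C1qa, C1qb and Lyz2, but not for Irf9 or Socs3.

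The genes most like the members over the 6 libraries were ranked by Pearson's r of log2(FPKM + 1) with the mean standardised profile of the 8 members, among 14008 other genes with a mean of at least 1 FPKM. Among the 5 highest were 9130015L21Rik (r = 0.988), Dlx3 (r = 0.987), Acaa1a (r = 0.985) and Tnfrsf1a (r = 0.983), a receptor of tumour necrosis factor. These 4 genes had their highest value in NMDA + PBS replicate 2 and their lowest in NMDA + PBS replicate 3. Each member weighs the same in the profile, also H2-K1, H2-D1, Irf1 and Ifit3, which had at most 8 fragments a library. The profile was highest in NMDA + PBS replicate 2 (1.07). The well-counted B2m, Bst2 and Ifit1 were instead highest in NMDA + SCF replicate 3 (397, 34.0 and 21.1 FPKM). The ranking covers 6 libraries that share transcript lists and depth, and it is a description only.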

How the data were processed

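RNA-seq of 6 retinal libraries was analysed, 3 of NMDA + PBS and 3 of NMDA + SCF. mRNA was enriched with oligo (dT) beads and sequenced on an Illumina HiSeq instrument. The authors deposited FPKM values per transcript for each library, and a table with clean read counts and the percent of reads kept and of bases of quality 30 or more, of which read counts served for depth. The aligner and counter are not given in the sources used here. The submitters' processing notes name the build mm9, but 98.2% of the 63313 Ensembl transcripts lay where GENCODE M21 (GRCm38) has them, so coordinates are those of GRCm38. Merged transcripts without a gene name (8.85 to 11.4% of the FPKM sum) were left out. FPKM was summed per gene over the 46933 transcripts in both lists (another 7529 are particular to list A and 8966 to list B) and fitted with limma 3.58.1 in R 4.3.3 (variance trend, condition only, pseudocount of 1) over all 25202 genes above 0, with Benjamini-Hochberg adjustment. The thresholds of the study's methods (adjusted p at or below 0.001 and a fold change of 2 or more) and an adjusted p of 0.05 were used for calls. FPKM times transcript length gave whole fragments (within 0.05) for 98.4 to 98.5% of values. The counted fragments were 14.1 to 18.2% of the clean read pairs. Intervals and the floor of 3 fragments cover counting error only. The fit was tested on simulated data. The members and gene lists were chosen with earlier results of these data known. The genes named are the members, 9 receptors and transducers, the 2 highest and 2 lowest fits of each other list (mean of at least 1 FPKM), up to 3 markers with the highest level of each cell type list and the 5 genes most like the members. Genes named for other reasons (Irf8, Parp12, Psmb8, Rfxap, Cx3cr1, Gpr34, P2ry12, Aif1) were chosen after their values were seen. A few single genes are not reported. Promoters are from RefSeq (GRCm38.p6, 8 of 9 members matched), and motifs were searched on both strands. Alternatives were other scalings, a pseudocount of 0.1, a filter on low values, all listed transcripts, voom on fragments, a replicate block, the transcript list as a term, no mitochondrial genes, another threshold and each library left out. Python 3.11.15 made the tables and plots.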

Additional observations from a re-analysis of the deposited data

Results flagged for a closer look

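Groups of 3 libraries are too small for a test of single outlying libraries. Outside the transcripts summed, 3 transcripts of pathway genes that are in list A only are described here. Each was higher in every NMDA + SCF library than in NMDA + PBS replicate 1. That library is the 1 control library of list A, which allows no test, and 23.4% of its summed FPKM was mitochondrial. How many of the 7529 transcripts particular to list A did the same was not counted. Ifi30, a thiol reductase of antigen processing, had a processed transcript (ENSMUST00000034299) at 36.3 FPKM in the lowest NMDA + SCF library. It had 33.5 FPKM in NMDA + PBS replicate 1, and these 2 values rest on 122 and 112 fragments. Ifnar1, a chain of the type I interferon receptor, had a retained-intron transcript (ENSMUST00000145008) at 5.40 FPKM in the lowest NMDA + SCF library and 3.16 FPKM in NMDA + PBS replicate 1. The class I gene H2-Q4 had a retained-intron transcript (ENSMUST00000173975) at 2.12 FPKM in the lowest NMDA + SCF library and 1.02 FPKM in NMDA + PBS replicate 1.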

How the results depend on the processing

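In 16 alternatives, 0 members reached a 2-fold change with an adjusted p of 0.001 or less, the same as with all 6 libraries. Genes called at that threshold numbered 0 with all libraries and 0 to 191 with 1 library left out, where the 191 came without NMDA + PBS replicate 1, which leaves each group with its own transcript list. A 2-fold change with an unadjusted p of 0.05 or less was met by 1017 genes and by 0 members. An adjusted p of 0.05 or less was found for 909 genes without NMDA + PBS replicate 1, 1 without NMDA + SCF replicate 2 and for 2 with voom, none a member. An unadjusted p of 0.05 or less was found for 2324 genes, and 1150 to 4332 with 1 library left out. Members at that p were H2-D1 without NMDA + PBS replicate 1 or without NMDA + SCF replicate 3, and Bst2 without NMDA + PBS replicate 2. Members without overlap numbered 0 with all libraries and 0 to 3 with 1 left out (Bst2, B2m and H2-K1, all higher, without NMDA + PBS replicate 2, when 25.03% of all genes did not overlap).

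The median log2 fold change of the members ranged from 0.03 to 0.52 with 1 library left out, and that of the 6 lists from -0.06 to 0.21. With 1 library left out the log2 fold change ranged from 0.10 to 1.02 for B2m, 0.07 to 1.504 for Bst2, 0.10 to 0.56 for Ifit1, -1.12 to -0.46 for H2-D1, 0.01 to 0.65 for H2-K1, 0.43 to 1.73 for Ifitm3 and 0.33 to 1.90 for C1qa. That of Irf1 ranged from -0.41 to 0.23 and was 0.12 with all listed transcripts and 0.29 with the transcript list as a term, and that of Irf9 ranged from -0.035 to 0.59. The cause of these reversals was not tested. With a term for the list, where NMDA + PBS replicate 1 alone stands for the controls, the log2 fold change was 0.34 for B2m, 0.69 for Bst2, 0.23 for Ifit1, 0.66 for H2-K1, 0.85 for Irf9 and -0.16 for H2-D1. That of H2-D1 was -2.11 with a pseudocount of 0.1 and -1.72 with voom, that of H2-K1 0.41 with a pseudocount of 0.1, and those of Irf9 and Irf1 0.52 and -0.32 with voom. Of the scalings, upper quartile scaling lowered Irf9 to 0.16 and Ifit1 to 0.19, and leaving out mitochondrial genes lowered them to 0.15 and 0.17.

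Deviations from the group means were correlated between the groups, over genes with a mean of at least 1 FPKM. Same-numbered libraries gave -0.050, -0.046 and -0.077, and differently numbered ones 0.013 to 0.052. These values gave no sign that the replicate numbers pair the samples. With the replicate block 0 genes were called, 1856 had an unadjusted p of at most 0.05, and no call changed.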
